A study of Mus musculus with 2 samples.

Results

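Collagens and laminins are the proteins of which basement membranes and connective tissue are mainly built, and the brain's vessels, its meningeal covering and its choroid plexus each carry their own set. The genes described here were all symbols of the feature list that name a collagen alpha chain (Col, a number, a, a number) or a laminin chain (Lama, Lamb or Lamc and a number). Of 55 such symbols among 25906 features, 51 had at least 30 UMIs over both libraries and were kept, 41 of them collagens and 10 laminins. A UMI marks 1 captured RNA molecule. Just outside the limit lay Col24a1 with 25 UMIs, and Col6a4 and Col10a1 had 7 and 6, while the kept genes nearest to the limit had 32 (Col28a1) and 37 UMIs (Col6a5).

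Laminins are cross-shaped trimers of an alpha, a beta and a gamma chain that lie against the cell surface. Type IV collagen forms a second sheet that is tied to the laminin sheet by nidogens and perlecan. At a brain capillary, endothelial cells, pericytes and astrocyte endfeet face the same membrane, while arteries, veins and the pia are bordered by fibroblasts that also make fibrillar collagens.

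The cells came from whole brains of adult mice and had been sorted as endothelial cells and astrocytes. There was 1 library from IL34LacZ/+ mice, which carry a LacZ allele of Il34 on 1 chromosome and which the design calls WT, and 1 library from IL34LacZ/LacZ mice, which carry it on both and which it calls KO. The strain, the number of mice, the exact ages, the sort markers and the site of the LacZ insertion do not appear in the labels. With 1 library per genotype there was no replicate, so no test was made, and all intervals are 95% intervals for counting error only. Paired values are given in the order IL34LacZ/+ and IL34LacZ/LacZ throughout.

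The libraries held 3901 and 5400 barcodes with 26679053 and 36696941 UMIs, and 1665 and 1168 cells were kept, with a median of 8096 and 10378 UMIs. Only 8 barcode sequences occurred in both libraries, 2 of them among kept cells. Il34, the targeted gene, was not lower in the library labelled IL34LacZ/LacZ: pericyte-like cells had 375 CPM (64 UMIs) and 521 CPM (131 UMIs), and fibroblast-like cells 322 CPM (74 UMIs) and 363 CPM (99 UMIs). A 3-prime tag outside the removed part of a gene checks nothing, so each library is named by its label, and every direction given for the libraries rests on that label. CPM are counts of a gene per 1000000 UMIs of the class in that library, and a 3-prime tag count is not scaled by gene length. RNA of the choroid plexus was spread through the suspension, since Ttr, a transthyretin gene of that epithelium, was found in 98.8% of endothelial-like cells.

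Cells were assigned to classes by marker lists that hold no collagen or laminin, so each class is a range of marker values and not a proven type. There were 519 and 299 endothelial-like cells, 34 and 46 pericyte-like cells, 21 and 25 fibroblast-like cells, and 72 and 59 cells with markers of a meningeal border (Slc47a1, Bnc2, Rspo3, Dpp4 and others), called Slc47a1 border cells here. The median cell had 13 of 14 endothelial markers, 8 of 9 pericyte markers, 7 of 10 fibroblast markers and 7 of 10 border markers, each in its own class. Border cells also held a median of 4 of 10 fibroblast markers, so these classes are not sharply divided. Both held a median of 3 of 10 astrocyte markers. In fibroblast-like cells the summed astrocyte list was 2565 and 2478 CPM, and 17 of 21 and 15 of 25 cells held at least 3 of its markers. Aqp4 alone was at 0 there in both libraries. In border cells the list was 2762 and 2220 CPM, and 64 of 72 and 52 of 59 cells held at least 3. Slc47a1, Bnc2 and Rspo3 entered the border list from earlier results of these data. Exactly at the limit of the assignment lay 11 and 3 border cells, 6 and 5 endothelial-like cells, and at most 1 cell per library in the other 2 classes. Smooth muscle-like cells numbered 1 and 1 and perivascular macrophage-like cells 0 and 1, so the arterial wall and those macrophages were not described. Choroid plexus epithelium-like cells (351 and 258), astrocyte-like cells (250 and 116) and oligodendrocyte-like cells (254 and 235) served for comparison. Neuron-like cells (11 and 10) were too few to rank.

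The type IV collagen genes stand in head-to-head pairs, and the stretches between the paired start sites are shown because the pairs differed in how they were spread over the classes. Positions are those of GRCm38 in the GENCODE annotation. Col4a1 (minus strand, chromosome 8, 11198423 to 11312826) and Col4a2 (plus strand, 11312805 to 11449287) start 21 bp apart and overlap at their 5-prime ends, so no untranscribed stretch lies between them. Col4a4 (minus strand, chromosome 1, 82448423 to 82586849) and Col4a3 (plus strand, 82586921 to 82722059) start 72 bp apart. Col4a6 (minus strand, chromosome X, 141165403 to 141474076) and Col4a5 (plus strand, 141475385 to 141689234) start 1309 bp apart. The sequences are from the RefSeq promoter table of GRCm38.p6, which matched 37 of the 51 genes, and are cut to the bases before the annotated starts, written 5′ to 3′ on the strand of the gene named. They lie at chr1:82586850-82586920 (minus strand, 71 bases, 69.0% G and C), chrX:141475169-141475384 (plus strand, 216 bases, 52.3%) and chrX:141474077-141474326 (minus strand, 250 bases, 47.6%). Capitals mark exact matches on either strand to the GC box (GGGCGG), the CCAAT box (CCAAT) or the TATA box (TATAAA).
Col4a4 towards Col4a3: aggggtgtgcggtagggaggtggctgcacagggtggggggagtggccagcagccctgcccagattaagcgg
Col4a5 upstream: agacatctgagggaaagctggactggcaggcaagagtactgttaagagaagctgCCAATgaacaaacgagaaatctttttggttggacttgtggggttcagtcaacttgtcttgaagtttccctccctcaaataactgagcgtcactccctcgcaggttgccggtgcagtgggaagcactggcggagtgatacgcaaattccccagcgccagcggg
Col4a6 upstream: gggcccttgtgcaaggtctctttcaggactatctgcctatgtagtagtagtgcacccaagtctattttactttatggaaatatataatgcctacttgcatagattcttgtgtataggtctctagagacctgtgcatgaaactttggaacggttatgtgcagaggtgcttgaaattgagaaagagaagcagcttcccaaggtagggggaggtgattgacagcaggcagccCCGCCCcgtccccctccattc
The stretch between Col4a4 and Col4a3 held none of these letters on either strand. Col4a5 held 1 CCAAT match, whose first base lies 162 bases before the end of the stretch, and Col4a6 held 1 GC box on the opposite strand, 21 bases before the end. Of 32851 promoter windows of the table, 30.8% held a CCAAT match in their last 216 upstream bases and 32.7% a GC box in their last 250, so matches of this kind are common and mark no site.

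Fibroblast-like cells devoted the largest part of their RNA to these genes. The 51 genes made up 1.42% and 1.59% of fibroblast-like UMIs, 0.734% and 0.649% in border cells, 0.656% and 0.686% in pericyte-like cells and 0.195% and 0.189% in endothelial-like cells. Astrocyte-like cells stood at 0.146% and 0.132%, choroid plexus epithelium-like cells at 0.0948% and 0.0887%, and oligodendrocyte-like cells at 0.0341% and 0.0370%. In both libraries the order from fibroblast-like to oligodendrocyte-like was the same, apart from border and pericyte-like cells, which changed places. Fibroblast-like cells were 1.62% of all kept cells and held 13.3% of all UMIs of these genes, and border cells were 4.62% and held 25.2%. Cells that met no marker rule (148) held another 12.6%, and 42 of them lay in the cluster of the border cells.

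The balance of the 2 families differed between classes. Laminins made up most of the total in pericyte-like cells, at 4372 and 4538 CPM against 2189 and 2321 CPM for collagens. Border cells were the reverse, with 6632 and 5795 CPM of collagens and 708.5 and 696.9 CPM of laminins. Endothelial-like cells had nearly even sums, 962.6 and 1062 CPM of collagens and 983.0 and 825.0 CPM of laminins. Fibroblast-like cells had 9511 and 10580 CPM of collagens and 4664 and 5334 CPM of laminins. Among the 7 classes with at least 20 cells per library, 23 of the 51 genes had their highest level over both libraries in fibroblast-like cells, 9 in pericyte-like, 8 in border, 4 in endothelial-like, 3 in oligodendrocyte-like and 2 each in astrocyte-like and choroid plexus epithelium-like cells. For 36 of the 51 the interval of the highest class stood apart from that of the next, and for 42 the same class was highest in both libraries.

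**Figure D1:**
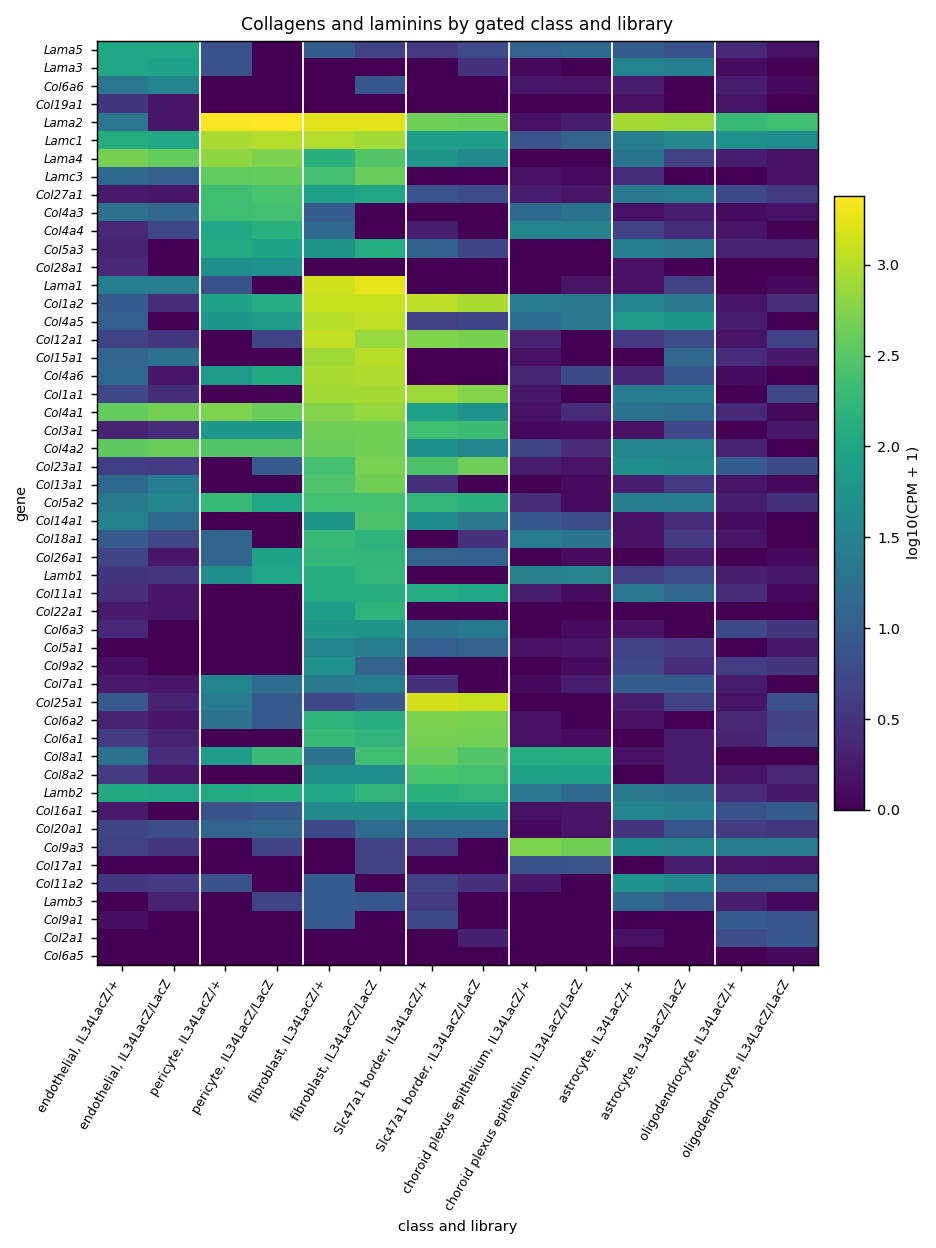
Heat map of the 51 genes (rows, ordered by the class in which each was highest) in 7 classes and 2 libraries (columns), coloured by log10(CPM + 1). The block of bright rows under fibroblast-like cells holds 23 genes, and adjoining columns of the 2 libraries look alike for most rows.

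The 3 type IV pairs differed in how they were spread over the classes. Col4a1 and Col4a2, the chains of the common network in almost all basement membranes, were found in endothelial-like, pericyte-like and fibroblast-like cells together. Col4a1 stood at 375.8 CPM (353 to 399) and 469.9 CPM (438 to 504) in endothelial-like cells, with a UMI in 388 of 519 and 228 of 299 cells. Pericyte-like cells had 533 CPM (429 to 654) in the first library, above the endothelial-like interval, and 421 CPM (345 to 509.5) in the second, where the intervals overlapped, and the fibroblast-like values were 566 CPM (473 to 672) and 701 CPM (605 to 808). Border cells had far less, 82.6 CPM (66.4 to 101.5) and 53.3 CPM (39.9 to 69.7), below all 3 of those classes in both libraries. Col4a2 was found in the same 3 classes, with endothelial-like cells above pericyte-like cells in place of the reverse, at 362 and 415 CPM in endothelial-like, 298.5 and 294 CPM in pericyte-like, 405 and 451.5 CPM in fibroblast-like and 48.6 and 32.2 CPM in border cells. Its endothelial-like, pericyte-like and fibroblast-like levels did not differ in order beyond their intervals in the library labelled IL34LacZ/+.

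Network protomers of this pair hold more of the Col4a1 chain than of the Col4a2 chain. Among UMIs of the pair, those of Col4a1 were 51.8% (50.2 to 53.5) in endothelial-like cells, 61.2% (55.6 to 66.5) in pericyte-like cells, 59.8% (55.5 to 64.0) in fibroblast-like cells and 62.7% (56.1 to 69.0) in border cells, over both libraries. The endothelial-like interval lay below the other 3. In astrocyte-like cells the share was 34.5% (27.4 to 42.2), on 58 Col4a1 and 110 Col4a2 UMIs. Both libraries gave the same order for endothelial-like against pericyte-like cells, with 50.9% and 53.1% against 64.1% and 58.9%, but their intervals overlapped in the library labelled IL34LacZ/LacZ. Capture of the 2 transcripts can differ, so the shares compare classes and are no ratio of molecules, and the labels do not say whether counting used the strand.

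Col4a3 and Col4a4, chains of the network of the kidney filter, had their highest levels in pericyte-like cells, though more of their UMIs came from the many choroid plexus epithelium-like cells (137 against 96 for Col4a3 and 270 against 54 for Col4a4). Col4a3 had 217 CPM (152.5 to 298.5) and 234.5 CPM (178.5 to 302) there, against 17.2 and 11.96 CPM in endothelial-like and 13.6 and 19.2 CPM in choroid plexus epithelium-like cells. Border cells had 0 Col4a3 UMIs, which allows at most 2.75 and 3.02 CPM. Col4a4 reached 105 CPM (62.4 to 166.5) and 143 CPM (100.2 to 198) in pericyte-like cells and 33.8 and 29.3 CPM in choroid plexus epithelium-like cells, its second class. Of the 34 and 46 pericyte-like cells, 15 and 23 held Col4a3, 10 and 19 held Col4a4, and 6 and 7 held both.

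Col4a5 and Col4a6, the X-linked pair whose products join in smooth muscle and some epithelial membranes, belonged to fibroblast-like cells. Col4a5 had 1028 CPM (901 to 1168) and 1145 CPM (1022 to 1280) there, and Col4a6 had 884 CPM (767 to 1014) and 939.7 CPM (828 to 1062). Pericyte-like cells came next for Col4a6, with 64.4 and 111 CPM, and had 58.5 and 71.5 CPM of Col4a5. Fibroblast-like cells with Col4a5 numbered 20 and 18, and 18 of them in each library also held Col4a6. The pair separated in astrocyte-like cells, which had 68.8 and 60.1 CPM of Col4a5, overlapping with pericyte-like cells, but 1.33 and 6.97 CPM of Col4a6.

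**Figure D2:**
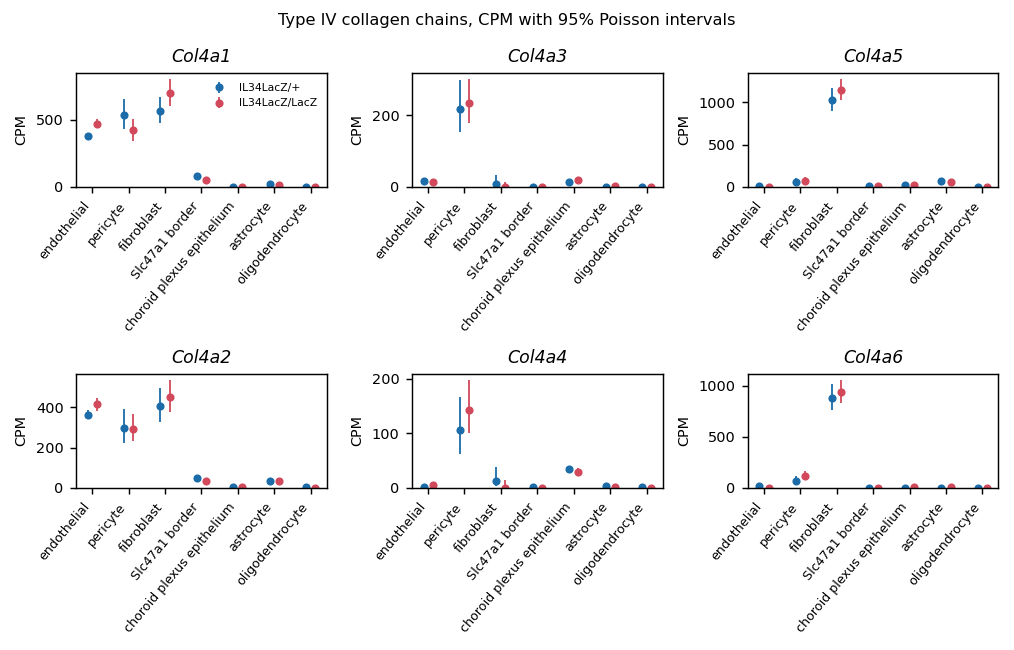
CPM of the 6 type IV chains (vertical axes, from 0) in 7 classes, with blue points for IL34LacZ/+, red points for IL34LacZ/LacZ and bars for 95% Poisson intervals. Each column of panels is a head-to-head gene pair, with high values in several vascular classes on the left, in pericyte-like cells in the middle and in fibroblast-like cells on the right.

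The 5 laminin alpha chains, which carry the receptor-binding end of the trimer, were not all highest in the same class. Lama1, the chain of embryonic and pial basement membranes, was a fibroblast gene here, with 1363 CPM (1216 to 1523) and 1810 CPM (1653 to 1977). Its next class, endothelial-like cells, had 27.4 and 26.9 CPM. Border cells had 0 Lama1 UMIs in either library, allowing at most 2.75 and 3.02 CPM. Within fibroblast-like cells Lama1 was in 17 of 21 and 19 of 25.

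Lama2, the chain lacking in merosin-deficient muscular dystrophy, was the most abundant laminin RNA of pericyte-like cells, with 2259 CPM (2040 to 2496) and 2400 CPM (2213 to 2599) in 33 of 34 and 44 of 46 cells. Fibroblast-like cells followed with 1707 CPM (1542 to 1885) and 1667 CPM (1517 to 1827). Astrocyte-like cells had 845.9 CPM (808 to 885) and 760 CPM (711 to 812), border cells 428 and 420 CPM, and oligodendrocyte-like cells 186 and 218 CPM. All of these neighbours in the order stood apart in their intervals in both libraries. A UMI of Lama2 was found in 96.2% of pericyte-like and 91.6% of border cells, against 0.821% of choroid plexus epithelium-like cells, whose median depth of 12329 and 13736 UMIs was greater.

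Lama4, the chain of endothelial laminins, was shared by pericytes and endothelium. The former class had 667 CPM (550 to 802) in the first library and 521 CPM (435 to 618) in the second, and the latter 481 CPM (456 to 508) and 384 CPM (355 to 415). Both classes were lower in the library labelled IL34LacZ/LacZ and kept their order. Fibroblast-like cells had 139 and 294 CPM and border cells 56.9 and 39.2 CPM. Lama5 stood out in endothelial-like cells, with 104 CPM (92.7 to 117) and 105 CPM (89.7 to 121). Its next class, choroid plexus epithelium-like cells, had 10.4 and 13.4 CPM. Lama3, a chain best known from epithelial anchoring complexes, was also highest in endothelial-like cells. It reached 101 CPM (89.2 to 113) in the first library and 85.5 CPM (72.1 to 101) in the second, with 32.9 and 27.0 CPM in astrocyte-like cells. It was carried by 96 of 519 and 51 of 299 endothelial-like cells.

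Of the beta chains, Lamb2 was nearly even over the 4 classes, with 111 and 105 CPM in endothelial-like, 117 and 131 CPM in pericyte-like, 100.2 and 158 CPM in fibroblast-like and 143 and 155 CPM in border cells. Those 4 levels overlapped in their intervals, apart from endothelial-like and border cells in the library labelled IL34LacZ/LacZ. Lamb1 was highest in fibroblast-like cells, at 131 and 172.5 CPM, then in pericyte-like cells, at 46.8 and 99.3 CPM. Endothelial-like cells had 2.19 and 2.39 CPM of Lamb1, and border cells had 0 UMIs. Lamb3, the partner of Lama3 in epithelia, was scarce everywhere and highest in astrocyte-like cells, with 11.5 CPM over both libraries.

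Lamc1, the gamma chain of most laminins, was highest in pericyte-like cells (895.5 and 1005 CPM) and fibroblast-like cells (971 and 822 CPM), whose intervals overlapped in each library. Endothelial-like cells had 123 and 106 CPM and border cells 75.3 and 75.4 CPM. Lamc3 had 369 and 377.5 CPM in pericyte-like and 235 and 400.1 CPM in fibroblast-like cells. Border cells again had 0 UMIs of it, so 3 of the 10 laminins (Lama1, Lamb1 and Lamc3) were not detected in 131 border cells, at a depth that allows at most 2.75 and 3.02 CPM.

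**Figure D3:**
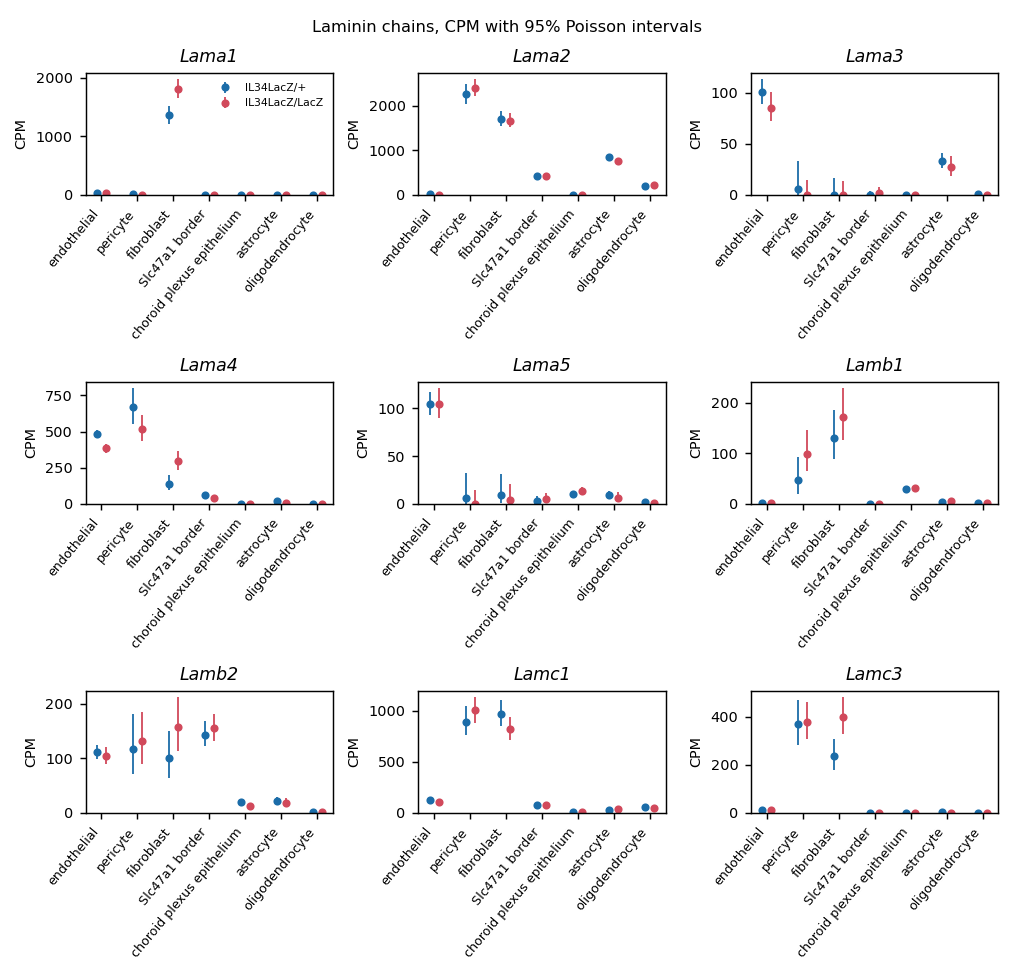
CPM of 9 laminin chains (vertical axes, from 0) in 7 classes, with blue points for IL34LacZ/+, red points for IL34LacZ/LacZ and bars for 95% Poisson intervals. Lama1 is high in fibroblast-like cells alone among the 7 classes, and Lama3 and Lama5 peak in endothelial-like cells. Lama2 is spread over pericyte-like, fibroblast-like, border, astrocyte-like and oligodendrocyte-like cells.

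Of the fibrillar collagens, which build the banded fibres of connective tissue, the type I chains were highest in fibroblast-like and border cells. Col1a2 stood at 1241 CPM (1101 to 1394) and 1255 CPM (1126 to 1396) in fibroblast-like cells and at 1099 CPM (1037 to 1163) and 883 CPM (825 to 943) in border cells. Col1a1, its partner in type I collagen, stood at 814 and 852 CPM against 761 and 558 CPM. The classes overlapped in their intervals for both genes in the library labelled IL34LacZ/+, and fibroblast-like cells were higher in the other library. Pericyte-like cells had 0 Col1a1 UMIs but 87.8 and 123 CPM of Col1a2, in 12 of 34 and 17 of 46 cells. A Col1a2 UMI was also found in 22.7% of choroid plexus epithelium-like, 16.9% of astrocyte-like and 0.613% of oligodendrocyte-like cells, which were the deepest of the 3.

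Col3a1, a fibrillar collagen of soft tissues and vessel walls, was higher in fibroblast-like cells (444 and 462.5 CPM) than in border cells (219 and 207 CPM). Col5a2, which joins type I fibrils, was 226.5 and 242 CPM in fibroblast-like, 174 and 142 CPM in border, 187 and 103 CPM in pericyte-like and 22.3 and 35.9 CPM in endothelial-like cells. Col11a1 was even between fibroblast-like (122 and 125 CPM) and border cells (117.5 and 107 CPM). Col27a1 was highest in pericyte-like cells, at 222 and 254 CPM against 82.7 and 99.1 CPM in fibroblast-like cells. Col5a3 had 117 and 91.4 CPM against 56.6 and 117.5 CPM in the same classes, which overlapped in each library. Col5a1 was highest in fibroblast-like cells at 29.9 CPM over both libraries.

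Fibril-associated collagens decorate those fibres. Col12a1 had 1185 CPM (1048 to 1334) and 730.5 CPM (632.5 to 839) in fibroblast-like cells and 541 and 493 CPM in border cells. Col22a1 had 78.4 and 150.5 CPM in fibroblast-like cells and, in the other 6 classes, 2 and 1 UMIs in endothelial-like cells. Col14a1 was 61.0 and 275 CPM in fibroblast-like cells, but all 14 and 75 UMIs came from 1 and 5 cells, and border cells had 42.2 and 21.1 CPM. Col16a1 was highest in border cells, at 60.6 and 56.3 CPM, and Col20a1 had 12.9 and 13.1 CPM there and 11.7 and 11.9 CPM in pericyte-like cells, which do not differ beyond their intervals.

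Col15a1 and Col18a1 are the collagens of the basement membrane zone, and the latter gives rise to endostatin. Col15a1 had 779.5 CPM (669.5 to 902.5) and 1035 CPM (918 to 1163) in fibroblast-like cells and 0 UMIs in border and pericyte-like cells. Of the fibroblast-like cells with Col15a1, 14 of 15 and 17 of 18 also held Lama1. Over the whole class Lama1 was in 17 of 21 and 19 of 25 cells, and in 14 of 18 and 16 of 21 of those with Col1a1. Col18a1 had 192 and 154 CPM there, and 23.6 and 19.0 CPM in choroid plexus epithelium-like cells. In border cells 0 and 2 UMIs of Col18a1 were counted.

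Border cells had a set of their own. Col25a1, a transmembrane collagen first known from amyloid plaques, was their most abundant member, with 1434 CPM (1363 to 1506) and 1232 CPM (1164 to 1303) in 57 of 72 and 50 of 59 cells. Among the 7 classes pericyte-like cells came next, with 14.2 CPM over both libraries (the 21 neuron-like cells had 136 CPM), and fibroblast-like cells 4.36 and 7.34 CPM. Col6a1 and Col6a2, chains of the beaded type VI filament, had 490 and 473 CPM and 523 and 501 CPM in border cells, against 187 and 158 CPM and 152 and 125 CPM in fibroblast-like cells. Of the border cells 64 and 56 held both chains. Their partner Col6a3 was highest in fibroblast-like cells instead, at 61.0 and 55.1 CPM, with 17.4 and 22.1 CPM in border cells.

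Col8a1 and Col8a2, the chains of the hexagonal lattice known from the corneal endothelium, were found together in border cells and choroid plexus epithelium-like cells. Border cells had 418.5 and 295.6 CPM of Col8a1 and 264 and 237 CPM of Col8a2. Choroid plexus epithelium-like cells had 125 and 135 CPM and 87.9 and 83.8 CPM. Pericyte-like cells had 70.2 and 203 CPM of Col8a1 and 0 UMIs of Col8a2.

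Among the other transmembrane collagens, Col23a1 was shared by fibroblast-like (235 and 503 CPM) and border cells (271 and 430 CPM), and astrocyte-like cells had 45.3 and 40.1 CPM. Col13a1, which sits at cell junctions with the matrix, had 279 and 437 CPM in fibroblast-like cells, 12.8 and 25.7 CPM in endothelial-like cells and 2 and 0 UMIs in border cells. Col17a1, of epithelial hemidesmosomes, was highest in choroid plexus epithelium-like cells at 6.23 CPM over both libraries. The same epithelium was the main source of Col9a3, a cartilage collagen chain, with 529 CPM (509 to 550.5) and 462.5 CPM (441 to 485). It accounted for 2492 and 1755 of the 6127 UMIs of that gene over all barcodes. Its partners were elsewhere, with Col9a2 highest in fibroblast-like cells at 29.9 CPM and Col9a1 in oligodendrocyte-like cells at 7.54 CPM over both libraries.

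The remaining genes were scarce. Col26a1 was highest in fibroblast-like cells (170 and 165 CPM) and was also found in pericyte-like cells, with 2 UMIs in 2 cells and 23 UMIs in 13 cells. Col28a1 was highest in pericyte-like cells at 49.7 CPM over both libraries. Col7a1, of anchoring fibrils, was level between fibroblast-like cells (23.9 CPM, 12 UMIs) and pericyte-like cells (23.7 CPM, 10 UMIs) over both libraries. Its highest class differed between the libraries. Col11a2 was highest in astrocyte-like cells, with 53.7 and 36.6 CPM. Col2a1 and Col6a5 were highest in oligodendrocyte-like cells, at 6.39 and 0.128 CPM over both libraries, the latter from 1 UMI. Col6a6 and Col19a1 were highest in endothelial-like cells, at 25.2 and 1.59 CPM.

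The number of genes with a UMI in at least 25% of cells was 29 in fibroblast-like, 19 in border, 13 in pericyte-like and 6 in endothelial-like cells. With every cell thinned to 1000 UMIs it was 14, 9, 5 and 3, so the order did not change though each count was lower. Median depth was 4387 and 4848 UMIs in endothelial-like, 4149 and 4813 in pericyte-like, 9171 and 10557 in fibroblast-like and 14115 and 16459 in border cells.

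Endothelial-like cells were divided by zone markers into arterial (36 and 13 cells), capillary (321 and 166), venous (12 and 17) and fenestrated (10 and 7) cells, the last with markers of vessels that lack a barrier. Those numbers leave wide intervals outside the capillary zone. Lama3 had 425 CPM (349.5 to 512) and 342 CPM (237 to 477) in arterial cells and 732.5 CPM (518 to 1005) and 713 CPM (478 to 1024) in fenestrated cells, against 48.2 CPM (38.7 to 59.2) and 43.4 CPM (31.9 to 57.7) in capillary cells. Venous cells had 142 CPM (75.5 to 243) and 122 CPM (69.7 to 198), so all 3 zones stood above the capillary interval in both libraries. The richest venous cell held 69.2% and 31.25% of these Lama3 UMIs, which numbered only 13 and 16. The venous level of the first library thus rests mainly on that cell, and the counting interval does not cover this. Fenestrated cells also led in Col4a1 (1195 and 1476 CPM, against 366 and 466.5 CPM in capillary cells) and Col4a2 (1137 and 1746 CPM, against 332 and 407 CPM). Col13a1 reached 520.5 and 836 CPM and Col15a1 308 and 492 CPM in them, and capillary cells had 4.28 and 8.31 CPM and 8.03 and 9.24 CPM.

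Venous cells held Col6a6, a type VI chain, at 469 CPM (340 to 632) and 274 CPM (192 to 380), in 4 of 12 and 8 of 17 cells. The richest cell held 62.8% and 27.8% of these Col6a6 UMIs, and 44.4% and 28.0% of the venous Lama1 UMIs. Lama1 was found there at 295 and 191 CPM, in 4 and 8 cells, and of all 11 and 16 endothelial-like cells with Lama1, 8 and 13 had at least 3 venous markers. In the library labelled IL34LacZ/+, 39 of the 75 endothelial-like Lama1 UMIs lay in 2 cells with at least 3 fibroblast markers. Arterial cells held Col8a1 (119 and 30.2 CPM, 31 and 3 UMIs), Col18a1 (76.6 and 70.3 CPM) and Col5a2 (134 and 301.5 CPM, with 66.7% of the latter from 1 cell). Col5a2 was also in venous cells, at 54.6 and 167.7 CPM, with intervals that overlapped the arterial ones. Lama5 was level between arterial cells, at 115 and 171 CPM, and capillary cells, at 107 and 105 CPM, whose intervals overlapped in each library. Venous cells had 43.7 and 83.9 CPM, on 4 and 11 UMIs, with intervals that overlapped the arterial ones.

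**Figure D4:**
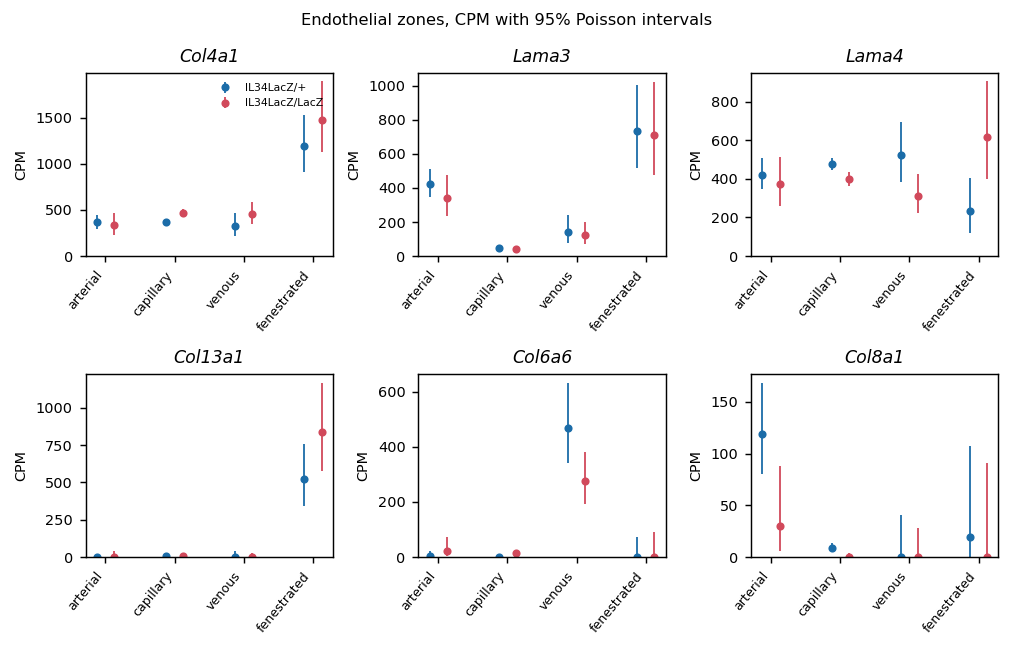
CPM of 6 genes (vertical axes, from 0) in 4 endothelial zones, with blue points for IL34LacZ/+, red points for IL34LacZ/LacZ and bars for 95% Poisson intervals. Col4a1, Lama3 and Col13a1 are highest in fenestrated cells, Col6a6 in venous cells and Col8a1 in arterial cells.

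The libraries were then compared within each class, the question of the design being what the LacZ/LacZ genotype changes in sorted vascular and glial cells. A gene with at least 30 UMIs in the class was called higher or lower when its CPM differed by more than 1.5-fold and the interval of the log2 ratio (IL34LacZ/LacZ over IL34LacZ/+) left out 0. Such a call describes 2 libraries and says nothing of the spread between mice. In bulk sums over a class, fewer cells of a subtype and less RNA per cell cannot be told apart.

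In endothelial-like cells the abundant basement membrane chains differed by less than 1.5-fold. Col4a1 had a log2 ratio of 0.32 (0.19 to 0.46) and Col4a2 of 0.20 (0.05 to 0.34), while Lama4 had −0.33 (−0.46 to −0.19), Lamc1 −0.22 (−0.49 to 0.05) and Lamb2 −0.08 (−0.36 to 0.19). Of 8 laminins measured 7 lay below 0, with a median of −0.23, and of 11 collagens 6 lay above it, with a median of 0.20. Over all 19 the median was −0.22, against −0.04 over all 9839 genes measured. Higher calls numbered 3 of 19 (15.8%), where 2.97% of all genes were called higher, and lower calls 4 of 19 (21.1%), where 7.21% of all genes were.

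The genes called higher were Col13a1 (35 and 43 UMIs, log2 ratio 1.01, 0.33 to 1.69), Col5a2 (61 and 60 UMIs, 0.69, 0.15 to 1.23) and Col6a6 (56 and 55 UMIs, 0.69, 0.12 to 1.25). These are zone genes, and the zone markers differed too: all 8 venous markers were higher in the library labelled IL34LacZ/LacZ, with summed levels of 583 and 1047 CPM, 2 of 3 fenestrated markers were, with 181 and 238.5 CPM, and 1 of 6 arterial markers was, with 521 and 336 CPM. No marker of those lists was at 0 in either library. Their part in the result was not tested. By single cells, 45 of 56 and 54 of 55 Col6a6 UMIs lay in cells with at least 3 venous markers. Of the Col5a2 UMIs in the library labelled IL34LacZ/LacZ 33.3% came from 1 cell, and of the Col6a6 UMIs in the other library 48.2% did. Without the richest 2% of cells for each gene, 0 genes were called higher and 1 lower in this class. A gene left under the UMI limit by that step gave no value, so these counts alone do not show that a call failed. Col13a1, found in 14 and 8 cells, gave no value there, and Col6a6 was found in only 10 and 11 cells.

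The genes called lower were Lama2 (55 and 1 UMIs), Col4a6 (33 and 1 UMIs), Col8a1 (48 and 3 UMIs, −3.29, −5.62 to −1.66) and Col14a1 (81 and 23 UMIs, −1.11, −1.84 to −0.42). Lama2 and Col4a6 had log2 ratios of −5.07 (−10.40 to −2.53) and −4.33 (−9.68 to −1.76), whose size rests on 1 UMI. In the library labelled IL34LacZ/+, 37 of the 55 Lama2 UMIs and 32 of the 33 Col4a6 UMIs lay in the few endothelial-like cells with at least 3 fibroblast markers, 3 cells for Lama2 and 2 for Col4a6. The summed fibroblast list was 29.2 and 11.4 CPM in endothelial-like cells (9 of 10 markers lower, and Dcn, Lum, Slc6a13 and Scara5 at 0 in the library labelled IL34LacZ/LacZ), and the pericyte list 59.2 and 18.5 CPM (9 of 9 lower, with Higd1b, Cspg4 and Ndufa4l2 at 0 there). The astrocyte list was also lower, at 246.5 and 150.1 CPM (9 of 10 lower), and 41 of the 55 Lama2 UMIs lay in 5 cells with at least 3 astrocyte markers. How far the 2 sets of cells overlap was not counted, and the part of any list in the result was not tested. Without cells holding at least 3 pericyte, fibroblast or border markers, neither gene reached 30 UMIs, and 5 genes were higher and 2 lower: Col8a1 had −3.16 (−5.50 to −1.52) and Col14a1 −1.34 (−2.13 to −0.62). Of the Col8a1 UMIs, 31 of 48 and 3 of 3 lay in cells with at least 3 arterial markers, and such cells numbered 42 of 519 and 13 of 299. Col14a1 UMIs were spread over 29 and 12 cells, 12.3% and 17.4% of them in the richest cell.

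In pericyte-like cells 1 of 16 measured genes was called higher (6.25%, against 5.82% of all genes) and 1 lower (6.25%, against 7.92%), which is close to the background. The abundant chains were nearly level, with log2 ratios of 0.09 (−0.10 to 0.28) for Lama2, 0.17 (−0.13 to 0.47) for Lamc1, −0.36 (−0.73 to 0.02) for Lama4, −0.34 (−0.76 to 0.08) for Col4a1 and 0.03 (−0.44 to 0.52) for Lamc3. Col8a1 was called higher (12 and 51 UMIs in 4 and 15 cells, 1.53, 0.60 to 2.57) and Col5a2 lower (32 and 26 UMIs, −0.86, −1.66 to −0.07). Both calls were lost when classes came from clusters, with 0.51 (−0.17 to 1.22) for Col8a1 and −0.57 (−1.35 to 0.20) for Col5a2. Many pericyte-like cells also held endothelial markers, at least 3 of 14 in 19 of 34 and 17 of 46 cells. The summed endothelial list was 1024 and 806.7 CPM in this class (1 marker higher and 11 lower). Its part in the levels and ratios of chains that endothelial-like cells share, such as Lama4 and Col4a1, was not tested.

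Fibroblast-like cells had 8 of 29 measured genes called higher (27.6%, where 7.73% of all genes were called higher) and 1 lower (3.45%, where 7.42% were). The median over the 29 was 0.16, against 0.01 over all 3789 genes measured. Of the most abundant genes, Lama2 had −0.03 (−0.23 to 0.16), Lama1 0.41 (0.20 to 0.62), Col1a2 0.02 (−0.21 to 0.25) and Col4a5 0.16 (−0.09 to 0.41). Col12a1 was the gene called lower (272 and 199 UMIs, −0.70, −0.97 to −0.43), and it had −0.55 (−0.86 to −0.25) without the richest 2% of cells, which is under 1.5-fold.

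Among the higher genes were the laminin chains Lama4 (32 and 80 UMIs, log2 ratio 1.08, 0.47 to 1.71) and Lamc3 (54 and 109 UMIs, 0.77, 0.28 to 1.26). Of transmembrane collagens, Col23a1 (54 and 137 UMIs) had 1.10 (0.63 to 1.58) and Col13a1 (64 and 119 UMIs) had 0.65 (0.20 to 1.11). Col5a3 (13 and 32 UMIs) had 1.05 (0.08 to 2.11), a call lost without the richest 2% of cells (1.10, −0.06 to 2.39), and Col22a1 (18 and 41 UMIs) had 0.94 (0.11 to 1.83). Col14a1 (14 and 75 UMIs) had 2.18 (1.34 to 3.11) and Col8a1 (4 and 60 UMIs) had 3.66 (2.23 to 5.58), the widest differences of the class.

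Col8a1 and Col14a1 came from a handful of cells. In the library labelled IL34LacZ/LacZ 7 fibroblast-like cells held Col8a1, 5 held Col14a1, and all 5 were among the 7. Smoc2, a calcium-binding matrix protein, was in 6 of those 7 cells. In the library labelled IL34LacZ/+ 1 cell held Col8a1 and another cell Col14a1. Smoc2 was in 6 fibroblast-like cells of that library, and the cell with Col8a1 was not among them. The other lists were not level in these 21 and 25 cells: the summed pericyte list was 1590 and 2515 CPM (6 of 9 higher, with Rgs5 and Higd1b at 0 in both libraries), the border list 971 and 1457 CPM (7 of 10 higher), and the smooth muscle list 196 and 18.4 CPM (0 of 9 higher, with Myh11 at 0 in both). Cells with at least 3 pericyte markers numbered 0 and 5, and with at least 3 border markers 5 and 9. Their part in the result was not tested. Without cells holding at least 3 endothelial or pericyte markers 17 and 15 cells remained, under the 20 set for a value, and cells with border markers were not left out.

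In border cells 1 of 21 measured genes was called higher (4.76%, against 2.93% of all genes) and 2 lower (9.52%, against 6.27%). The median was −0.14, against −0.09 over all genes, and 17 of the 21 lay below 0. Of the most abundant, Col25a1 had −0.22 (−0.33 to −0.11), Col1a2 −0.32 (−0.44 to −0.19), Col1a1 −0.45 (−0.60 to −0.29), Col12a1 −0.13 (−0.31 to 0.04) and Col6a2 −0.06 (−0.24 to 0.11). Col23a1 was called higher (295 and 428 UMIs, 0.67, 0.45 to 0.89), and Col4a1 (90 and 53 UMIs, −0.63, −1.15 to −0.13) and Col14a1 (46 and 21 UMIs, −0.999, −1.82 to −0.23) lower. All 3 calls were lost with classes from clusters, which gave 96 and 85 cells, where Col23a1 had 0.56 (0.37 to 0.76), Col4a1 −0.54 (−0.94 to −0.14) and Col14a1 turned to 0.58 (0.21 to 0.96).

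**Figure D5:**
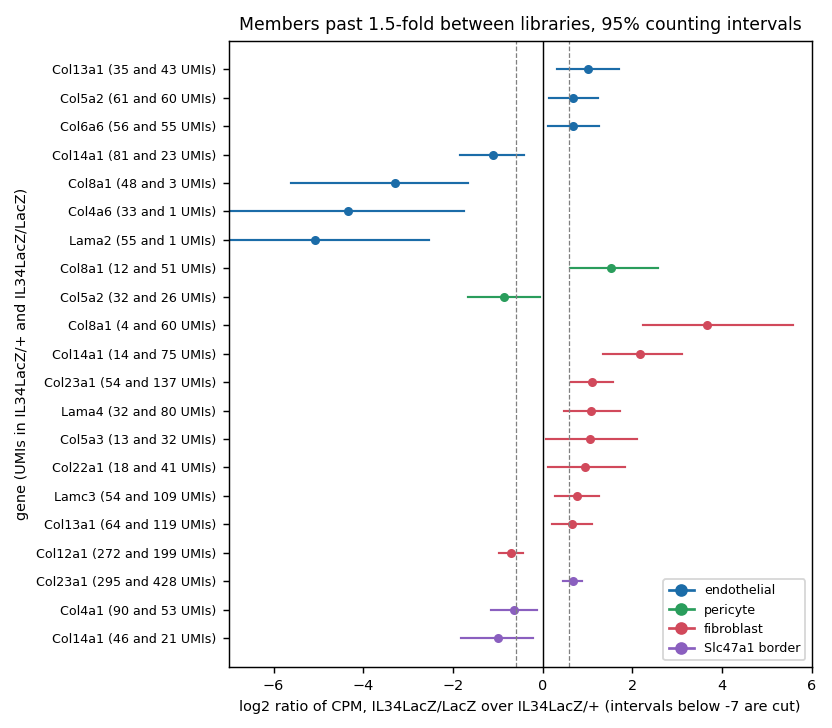
Log2 ratios of CPM (horizontal axis, IL34LacZ/LacZ over IL34LacZ/+) of the 21 genes called in the 4 vascular and meningeal classes, with points for the ratio, lines for 95% counting intervals and dashed lines at 1.5-fold. Lines that reach below −7 end there. The UMIs of both libraries stand beside each name, and the ratios farthest from 0 are those with 1 to 4 UMIs in a library.

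Outside the vascular and meningeal classes few genes were called. In choroid plexus epithelium-like cells Lamc1 was higher (30 and 42 UMIs, 0.80, 0.09 to 1.52) and Lamb2 lower (95 and 48 UMIs, −0.67, −1.21 to −0.16), 1 each of 14, where 6.88% and 1.42% of all genes were called. Astrocyte-like cells had 1 of 20 lower, where 3.89% were: Lama4 (44 and 4 UMIs, −2.49, −4.43 to −1.03), with 84.1% of its UMIs in the library labelled IL34LacZ/+ from 1 cell. None of the 20 was called higher, where 2.43% were. Oligodendrocyte-like cells had 1 of 8 lower, where 3.01% were, Col23a1 (30 and 20 UMIs, −0.87, −1.76 to −0.00), and 53.3% of its 30 UMIs came from 1 cell. None was called higher there, where 2.24% were.

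Partner genes were taken from 4 lists: basement membrane partners (10 genes), collagen folding and processing (21), receptors of collagens and laminins (15) and proteases with their inhibitors (10). In endothelial-like cells 0 of 9 measured partners and 0 of 7 receptors were called in either direction. Among 12 folding genes 1 was lower, Plod2, a lysyl hydroxylase (155 and 63 UMIs, −0.59, −1.03 to −0.16). When haemoglobin, mitochondrial and ribosomal protein UMIs were left out, 1 gene of the 4 lists was called in this class in place of 2. Of 5 proteases and inhibitors 1 was higher, Adamts9, a secreted metalloprotease (170 and 307 UMIs, 1.56, 1.29 to 1.84). Over all genes measured in endothelial-like cells, 2.97% were called higher and 7.21% lower. One call in a list of this size therefore says little of the list. Pericyte-like cells had 0 calls among 19 measured genes of the 4 lists, where 5.82% of all genes were called higher and 7.92% lower.

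In fibroblast-like cells Smoc2 was higher (10 and 92 UMIs in 6 and 7 cells, 2.96, 2.01 to 4.06), with 50% of the latter UMIs in 1 cell. It was 1 of 6 partners called, in a class where 7.73% of all genes were higher and 7.42% lower, so that 1 call in a list of this size says little of the list. Timp2, a metalloprotease inhibitor, was also higher (49 and 93 UMIs, 0.68, 0.16 to 1.21), and Mmp14, a membrane-bound metalloprotease, was lower (58 and 39 UMIs, −0.82), which made 1 call in each direction among 5 proteases and inhibitors. Plod2 (19 and 42 UMIs, 0.90) was 1 of 10 folding genes higher and Itga3, an integrin chain that binds laminin (18 and 45 UMIs, 1.07), 1 of 7 receptors. These 3 genes, with fewer than 100 UMIs, were named after their values were seen, as were Itgb4 and Adamts9 in border cells. Border cells had Agrn, the heparan sulfate proteoglycan agrin, lower (74 and 41 UMIs, −0.72, −1.31 to −0.15) as 1 of 8 partners. Timp3, the inhibitor bound to the matrix, was higher there (170 and 345 UMIs, 1.15, 0.88 to 1.43), with 25.2% of the latter from 1 cell. Adamts9 was the 1 gene lower among 6 proteases and inhibitors (65 and 27 UMIs, −1.14), and Itgb4, an integrin chain of hemidesmosomes, the 1 higher among 10 receptors (16 and 31 UMIs, 1.09). Of 15 folding genes 0 were called. Over all genes measured in border cells, 2.93% were called higher and 6.27% lower, so these single calls say little of their lists.

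Agrn was lower in astrocyte-like cells as well (165 and 53 UMIs, −0.67, −1.14 to −0.21), where P4ha1, a prolyl hydroxylase of collagen folding, was also lower (544 and 170 UMIs, −0.71, −0.96 to −0.46). Sec23a, a coat protein of procollagen export, was higher there (77 and 59 UMIs, 0.59, 0.07 to 1.10). Not every called gene is named here. Of 3 partners measured in astrocyte-like cells 1 was called higher and 1 lower. The same held for 15 folding genes, and of 8 receptors 1 was lower. Over all genes in that class 2.43% were called higher and 3.89% lower. In choroid plexus epithelium-like cells Adamts1, a secreted metalloprotease, was lower (155 and 75 UMIs, −0.74, −1.15 to −0.33). It was 1 of 2 lower among 6 proteases and inhibitors, and of 11 receptors 1 was higher and 1 lower. Over all genes there 6.88% were called higher and 1.42% lower. Oligodendrocyte-like cells had Bmp1, the procollagen C-proteinase, lower (71 and 52 UMIs, −0.73, −1.28 to −0.20) and Timp3 higher (41 and 79 UMIs, 0.66, 0.10 to 1.25). These were 1 of 11 folding genes and 1 of 4 proteases and inhibitors, and of 4 partners 1 was higher and 1 lower. Over all genes there 2.24% were called higher and 3.01% lower.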

How the data were processed

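Single-cell RNA of cells sorted from adult mouse brain was measured in 1 library of each genotype with the 10x Chromium 3-prime chemistry v3.1, per the labels' protocols. The deposited matrices of the authors hold raw UMI counts (genes by barcodes) made with version 7.1.0 of Cell Ranger, per the file headers. The build was GRCm38.p6 (mm10), per the submitters' processing notes. Neither the labels nor the headers name the annotation, the strand setting or a step against ambient RNA. Gene positions came from GENCODE.

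Barcodes with at least 1000 UMIs, 500 genes and at most 15% mitochondrial UMIs were kept. Scrublet in scanpy 1.11.5 marked 3 and 7 barcodes as doublets, which were removed. Those are few, so doublets that carry transcripts between classes may remain. A cell joined a class when it held at least 50% of that list's markers and led the next list by at least 20% of the list's markers. Between the fibroblast and border lists any lead sufficed, and barcodes with 50% haemoglobin UMIs were called erythrocytes. This rule and the division of endothelial-like cells were set after marker values, but not the levels of collagens and laminins, had been seen. The genes and lists were chosen with earlier results of these data known. Leiden clusters, built without collagens, laminins, Il34 and sex-linked, mitochondrial, ribosomal protein and haemoglobin genes, were an alternative.

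Counts were summed per class and library and divided by the class total. CPM carry exact Poisson intervals, shares exact Clopper-Pearson intervals and log2 ratios exact conditional binomial intervals, all at 95%. They cover counting error only, and a count of 0 allows up to 3 counts. The scripts were tested on simulated data. Genes with at least 200 UMIs over endothelial-like, pericyte-like, smooth muscle-like, fibroblast-like and border cells were described in every class that matters and the others by their highest class. Between libraries, called genes, the 5 most abundant genes of each vascular or meningeal class, and called partner genes with at least 100 UMIs were named.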

Additional observations from a re-analysis of the deposited data

Results flagged for a closer look

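For 5 genes the ratio between the libraries was called in opposite directions in different classes. The differences between classes were not tested, since there was 1 library per genotype. Col8a1 had a log2 ratio of −3.29 in endothelial-like cells, 1.53 in pericyte-like cells and 3.66 in fibroblast-like cells. Col14a1 had −1.11 in endothelial-like, 2.18 in fibroblast-like and −0.999 in border cells, the last of which changed sign with classes from clusters. Col5a2 had 0.69 in endothelial-like and −0.86 in pericyte-like cells. Lama4 had 1.08 in fibroblast-like and −2.49 in astrocyte-like cells, where 84.1% of the UMIs of the library labelled IL34LacZ/+ lay in 1 cell. Col23a1 had 1.10 in fibroblast-like, 0.67 in border and −0.87 in oligodendrocyte-like cells.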

How the results depend on the processing

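The numbers of genes highest in each vascular or meningeal class stayed within 1.5 times under every alternative run for them. The Col4a1 share was run only with at least 2000 UMIs per cell and with classes from clusters. It also stayed within 1.5 times, which is a wide limit for a share. Of 21 calls between libraries in the 4 classes, 12 held in every alternative that still measured the gene and 9 were lost in 1 or more. Genes under the UMI limit and classes under 20 cells per library gave no value, so the 12 were not all put to every alternative. With at least 100 UMIs, 10 calls had a value and stayed the same. Without the richest 2% of cells 10 were the same and 4 weaker. Without cells holding 3 markers of another of the 4 classes, 5 were the same and 3 weaker. With classes from Leiden clusters, lower calls were 2 in endothelial-like, 0 in pericyte-like and 1 in border cells, higher calls were 0 in border cells, and Col14a1 in border cells reversed to 0.58. Without haemoglobin, mitochondrial and ribosomal protein UMIs, 1 gene was lower in border cells and 1 partner gene was called in endothelial-like cells. Without the richest 2% of cells for a gene, endothelial-like cells had 0 higher and 1 lower, and pericyte-like and fibroblast-like cells 0 lower. Genes without a value, such as Col13a1 in endothelial-like cells, count as not called in these numbers. With at least 100 UMIs per gene, lower calls were 1 in endothelial-like, 0 in pericyte-like and 1 in border cells, and higher calls were 0 in pericyte-like and 4 in fibroblast-like cells. Without cells holding 3 markers of another of the 4 classes (fibroblast and border lists not counted against each other), an alternative chosen after seeing the data, endothelial-like cells had 5 higher and 2 lower and border cells 0 and 0, while pericyte-like and fibroblast-like cells fell under 20 per library and gave no value. Thinned to 1000 UMIs, genes in at least 25% of cells numbered 3 in endothelial-like, 5 in pericyte-like, 14 in fibroblast-like and 9 in border cells. No paired analysis was possible because there was 1 library per genotype. With 21 to 72 cells per library in 3 of the 4 classes, counts limit the less abundant genes, and leaving out replicates could not be done.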

Other observations

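Small classes held a few members. Col19a1 had 9 UMIs in the 21 neuron-like cells, 53.3 CPM, Col5a1 7 UMIs, 41.4 CPM, and Col11a1 21 UMIs, 124 CPM. Each lay above its highest level in the 7 ranked classes, but for Col5a1 (16.7 to 85.4) and Col11a1 (76.9 to 190) that level was within the interval. In each case 1 cell held a large part of the UMIs: 55.6% for Col19a1, 57.1% for Col5a1 and 42.9% for Col11a1. In the library labelled IL34LacZ/LacZ 1 of 11 microglia-like cells held 40 UMIs of Col25a1 and also 7 of 10 border markers. The 2 smooth muscle-like cells had 75 UMIs of collagens and laminins, 0.569% of their total. Barcodes left out by the filters (2236 and 4232) held 203 and 171 CPM of these genes.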
